A study of Mus musculus with 12 samples.

Results

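The DNA microarray data were examined for 10 genes that mark regeneration, denervation and atrophy of skeletal muscle: Pax7, Myod1, Myog, Myh3, Myh8, Chrna1, Chrng, Ankrd1, Fbxo32 and Trim63. The members were found by their gene name in the array data, where they are represented by 18 of 41174 probes and are 10 of 27373 gene names. The RNA came from whole back skin of shaved male C57BL/6J mice, 8 weeks old at the start, that received 200 µL per day of 3% minoxidil (MXD), 10% Notocactus ottonis cell extract (N-CE) or the vehicle control (VC, propylene glycol, ethanol and water) on the back. For each group, the RNA of 6 mice was combined into 1 pool at week 1 (1W), week 2 (2W) and week 3 (3W). A treated pool and the VC pool of that week were compared on a dye swap of 2 arrays, one with the treated RNA in Cy5 and the other with it in Cy3. The 12 arrays give 6 comparisons of 1 pool with 1 pool, so no comparison within a week has a biological replicate, and the SD given below is the spread of the dye swap. The 4 arrays of a week lie on 1 slide and share a VC pool, so week and slide cannot be told apart.

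Mouse back skin carries a thin sheet of striated muscle, the panniculus carnosus, below the dermis. When such muscle is injured, satellite cells marked by Pax7 enter the myogenic program, in which Myod1 commits the cell and Myog starts differentiation, and new fibers first make the embryonic and perinatal myosin heavy chains Myh3 and Myh8. A fiber that loses its nerve again makes the fetal acetylcholine receptor subunit Chrng and more Chrna1, and a wasting fiber makes the ubiquitin ligases Fbxo32 (atrogin-1) and Trim63 (MuRF1). Ankrd1 is a stress-induced ankyrin repeat protein of the sarcomere that is also known from cells outside muscle. A fall of fiber genes in whole skin can mean fewer fibers, less RNA per fiber or more RNA from other cells. These cannot be told apart in bulk tissue.

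To be called, a gene needed a mean fold of treated over VC above 1.5 or below 0.75, the same sign on the 2 arrays of the swap, and a software P below 0.01 on each of them. Each gene is given by its brightest probe unless another is named. A probe is called measured below when it was well above background in at least 1 of the 2 groups.

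The sequences of 3 probes are shown because the results on the developmental myosins rest on them. Each is a 60-base probe as given in the array data, with its place on mm9.
Myh3, chr11:66914857-66914916: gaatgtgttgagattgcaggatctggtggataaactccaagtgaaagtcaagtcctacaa
Myh8, bright probe, chr11:67121925-67121984: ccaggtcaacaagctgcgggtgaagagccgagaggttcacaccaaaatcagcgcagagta
Myh8, dim probe, chr11:67098388-67098447: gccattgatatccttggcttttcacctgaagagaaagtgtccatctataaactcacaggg
The bright Myh8 probe read between 16044 and 78544 units of processed signal, whereas all readings of the other 3 Myh8 probes lay between 3.24 and 23.8 and were not well above background in any comparison. The bright probe was set against the probes of 6 other myosin heavy chains in every ungapped overlap of at least 30 bases. The highest identity was 73.3%, over 30 bases of a probe of the adult myosin Myh1. This compares probes with probes and cannot show a match to a transcript. Because the probes of Myh8 disagree, values of the bright probe are given as those of that probe and not as a level of perinatal myosin. Whether it bound another myosin transcript was not tested. The other probes named below lie at chr1:136188874-136188933 (Myog), chr2:73404112-73404171 (Chrna1), chr1:89108141-89108200 (Chrng, second probe), chr19:36186809-36186868 (Ankrd1), chr15:58009391-58009450 (Fbxo32, second probe) and chr4:133885025-133885084 (Trim63). An annotation of that build with exons was not used here.

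In MXD at 1W, 4 of the 10 members were called up (Myog, Myh3, Chrna1 and Ankrd1), against 0.848% of all genes, and 1 was called down (the bright probe of Myh8), against 0.855%. The second probe of Chrng was called up as well. The median of the 10 measured members was 0.46 on the log2 scale, beside -0.01 for all genes and -0.72 for a list of 22 mature fast muscle genes, of which 14 were called down and 1, the adult myosin Myh2, was called up (log2 0.79 ± 0.06). With another background correction (normexp with loess), the median of the members was 0.14 and that of the fast muscle list -0.69.

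Among members measured in both groups, Ankrd1 had the largest fold at MXD 1W. Its processed signal was 1522 and 1454 in the MXD pool against 174 and 190.02 in the VC pool, so that both treated readings lay far above both VC readings. The fold was 8.18 (log2 3.03 ± 0.14, SD of 2 arrays). Myh3, the embryonic myosin heavy chain, read 211 and 262 in MXD against 28.6 and 42.9 in VC, a 6.71-fold difference (log2 2.75 ± 0.19). Its second probe gave log2 2.99 and 2.48 on the 2 arrays and was called too. With normexp, the log2 values were 2.46 for Ankrd1 and 1.33 for Myh3, so the direction held while the size of the Myh3 fold depended on how a VC signal near background was treated.

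Myog, the transcription factor that starts differentiation, read 324 and 397 in MXD against 162 and 183 in VC. The groups did not overlap and the fold was 2.09 (log2 1.06 ± 0.08). Chrna1, the receptor subunit shared by the fetal and adult receptor, read 1353 and 1377 against 839.8 and 909, a 1.56-fold difference (log2 0.64 ± 0.06) that lies just above the threshold and fell below it with normexp (log2 0.58). Its dimmer second probe gave log2 0.43 and 0.06 and was not called.

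Chrng, the subunit that only the fetal receptor holds, was well above background in the MXD pool at 1W and in no other pool. Its second probe read 53.8 and 75.4 in MXD against 5.52 and 6.22 in VC, where it was not well above background, and MXD was at least 1.53-fold higher. This bound sets the MXD mean against the lowest signal among probes well above background on the VC side. The brighter probe of Chrng was not called, with readings of 25.2 and 42.1 in MXD and 19.5 and 15.05 in VC, and gave a bound of at least 1.097-fold. The adult subunit Chrne went the other way and was called down (log2 -0.64 ± 0.10).

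The other members did not pass at MXD 1W in the upward direction. Myod1, which commits cells to the muscle lineage, had log2 values of 0.41 and 0.15. Pax7, the satellite cell marker, was well above background in VC only and read 22.2 and 15.04 in MXD against 32.4 and 36.8 in VC, where VC was at least 1.15-fold higher. Trim63 and Fbxo32, the ligases of atrophy, were not called, with means of -0.06 ± 0.06 and -0.19 ± 0.52. The bright Myh8 probe was called down (log2 -0.86 ± 0.12), close to the mature fiber genes.

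**Figure D1:**
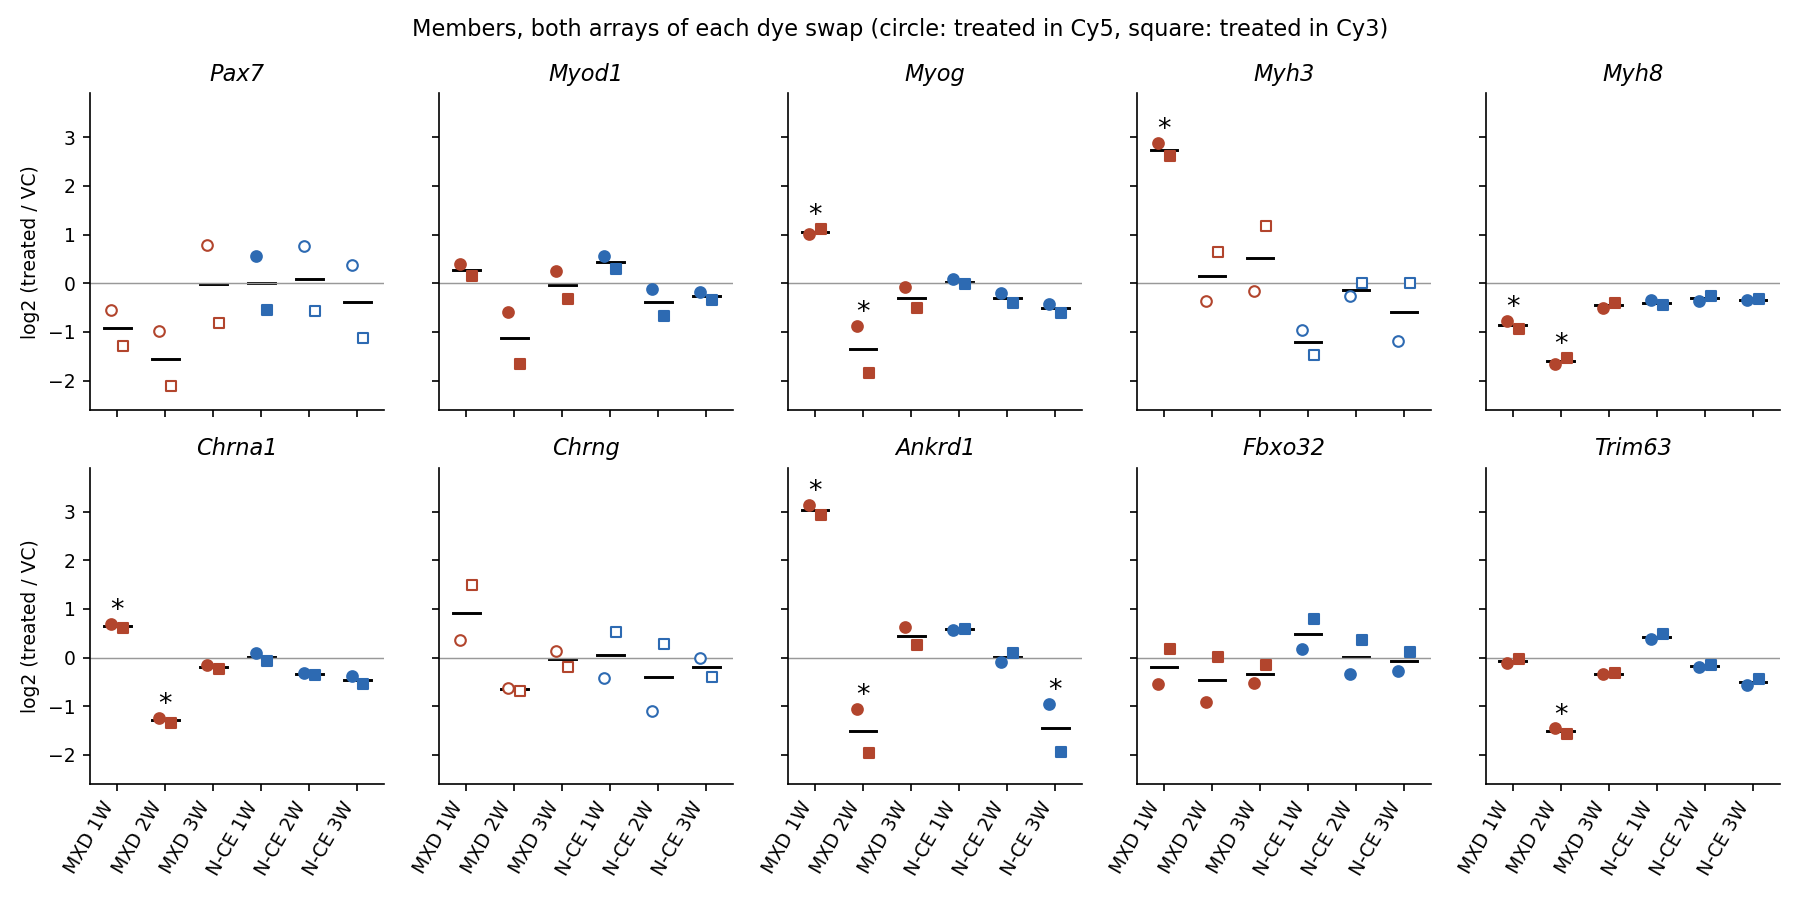
Log2 ratio of treated over VC for each member in the 6 comparisons. Circles are arrays with the treated pool in Cy5, squares those with it in Cy3, bars are means, open symbols mark probes not well above background in 1 or both groups, and asterisks mark called genes. Myog, Chrna1 and Ankrd1 lie above 0 in MXD at 1W and below 0 at 2W.

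In MXD at 2W, 5 members were called down (Myog, Chrna1, Ankrd1, Trim63 and the bright probe of Myh8), against 6.87% of all genes, and 0 were called up, against 4.26%. The median of the 8 measured members was -1.44, beside 0.03 for all genes and -1.46 for the mature fast muscle genes, of which 22 of 22 were called down. The 5 called members had means between -1.29 and -1.59, inside the range of the fiber genes (-1.80 to -1.10). Both statements depended on the background correction. With normexp, the median of the members was -0.53 while that of the fiber genes was -1.44, and Myog (-0.57), Ankrd1 (-0.38) and Chrna1 (-1.06) lay outside the fiber range of -1.79 to -1.09. Trim63 and the bright Myh8 probe kept values of -1.52 and -1.57.

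Myog read 96.9 and 49.7 in MXD against 178 and 173 in VC, which was 2.56-fold higher. The 2 arrays differed in size (log2 -0.87 and -1.84), with a mean of -1.36 ± 0.68, and the mean was -0.57 with normexp. Chrna1 read 393 and 325 against 924 and 824, with VC 2.44-fold higher (log2 -1.29 ± 0.08), and its second probe was called down too (log2 -1.27 ± 0.21). Both probes of Chrna1 gave like values at 2W, with no overlap between the pools.

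Trim63 read 2727 and 2051 in MXD against 7470.3 and 6123 in VC, 2.86-fold higher in VC (log2 -1.52 ± 0.09). For Fbxo32, the brighter probe had log2 values of -0.92 and 0.01 that depended on the dye, and it was not called. Its second probe read 1087 and 900.0 against 2785 and 2218 and was called down (log2 -1.33 ± 0.04). Trim63 was thus called down in MXD at 2W on its brightest probe, and Fbxo32 on its second probe but not on its brightest. Values of a dimmer second probe of Trim63 are not given here.

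Ankrd1 fell below VC at 2W, with readings of 63.8 and 26.6 against 133 and 104 (log2 -1.51 ± 0.65). It was well above background in MXD on 1 of 2 arrays, and with normexp the mean was -0.38 and the call was lost. Myod1 had log2 values of -0.59 and -1.66 and was not called. Myh3 and the 2 Chrng probes were not well above background in either pool, and Pax7 was so in VC on 1 array only, with VC at least 1.11-fold higher.

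At MXD 3W no member was called, against 0.187% of genes up and 0.183% down, and 5 of the 7 measured members were lower on both arrays, as were 27.2% of all measured genes. Trim63 had a mean of -0.33 ± 0.01, Chrna1 -0.20 ± 0.05 and the second probe of Fbxo32 -0.51 ± 0.13, beside -0.45 for the mature fast muscle genes. The brightest probe of Fbxo32 had -0.34 ± 0.27. Ankrd1 was the 1 member higher on both arrays (log2 0.63 and 0.25).

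**Figure D2:**
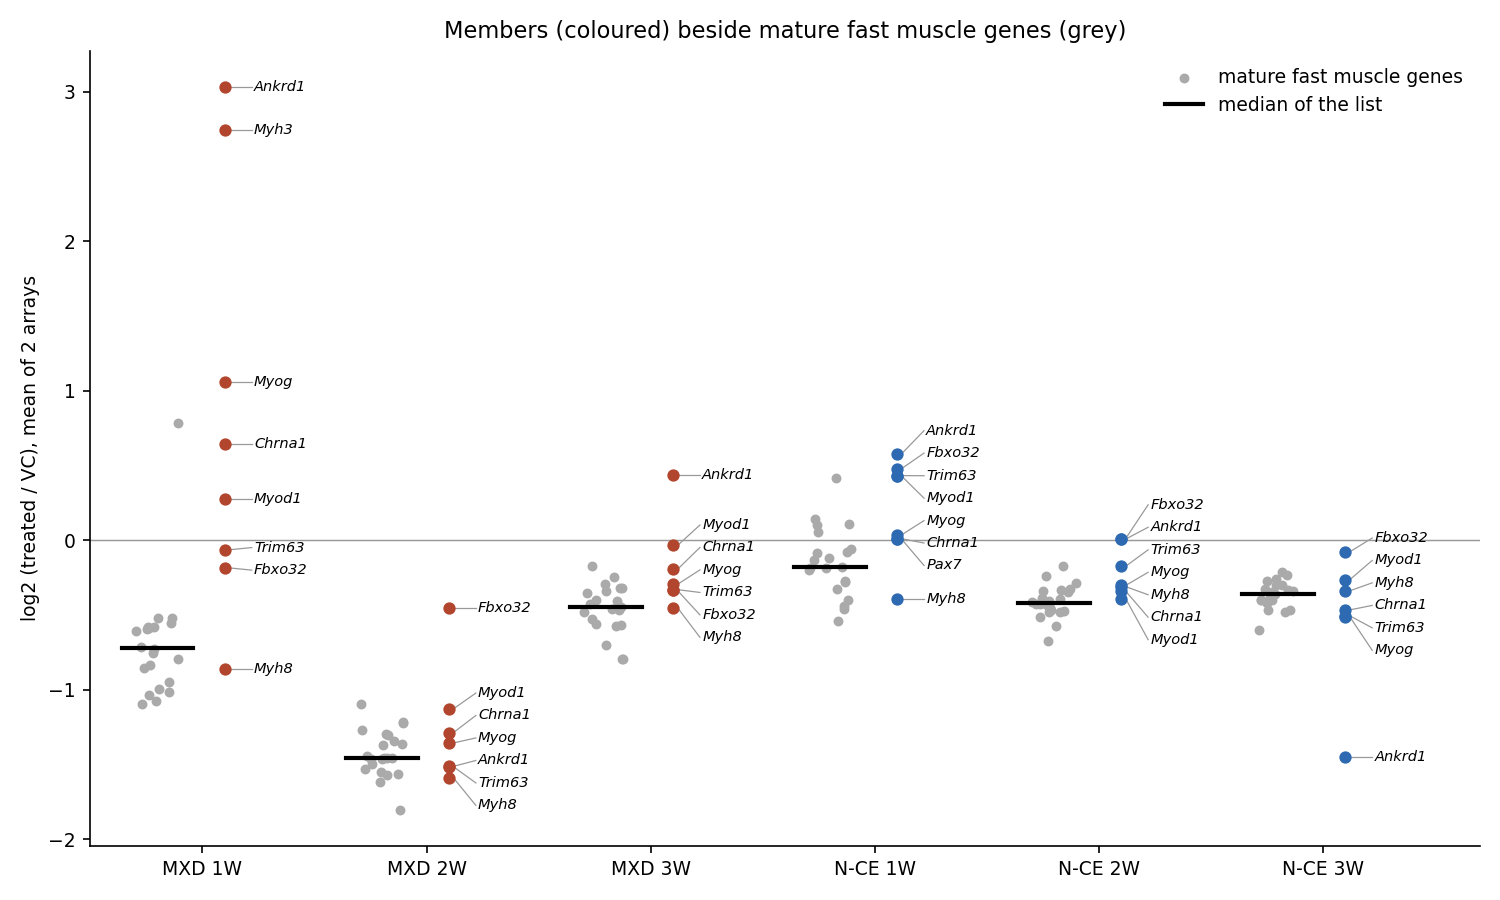
Mean log2 ratio over the dye swap for members measured in both groups (coloured points) and for 22 mature fast muscle genes (grey points, with their median as a bar) in each comparison. At MXD 1W, Ankrd1, Myh3, Myog and Chrna1 lie above 0 while the fiber genes have a median of -0.72, and at MXD 2W the called members lie between -1.29 and -1.59, around the fiber median of -1.46, while Fbxo32 lies at -0.46.

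Set against the mature fast muscle genes on the same arrays, Myog, Chrna1, Ankrd1 and Trim63 lay farther from the median of the list at MXD 1W than at 2W. The log2 ratio minus the median of the fast muscle list was 1.76 ± 0.19 for Myog at MXD 1W and 0.06 ± 0.52 at 2W. For Chrna1 it was 1.34 ± 0.05 and 0.13 ± 0.09, and for Ankrd1 it was 3.73 ± 0.02 and -0.09 ± 0.48. For Trim63 the difference was 0.63 ± 0.17 at 1W and -0.10 ± 0.08 at 2W. The bright Myh8 probe stayed near the list in both weeks, at -0.17 ± 0.01 and -0.17 ± 0.25. With normexp at 2W, Myog and Ankrd1 were at -0.57 and -0.38 beside a list median of -1.44. The log2 ratios of this Myh8 probe in N-CE were -0.40 ± 0.06, -0.31 ± 0.06 and -0.34 ± 0.01 from 1W to 3W, none of them called.

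In N-CE no member was called at 1W, against 0.362% of genes up and 1.85% down, or at 2W, against 0.0806% and 0.0513%. At N-CE 1W the ligases of atrophy were higher on both arrays without passing the threshold. Of all measured genes, 33.5% were higher on both arrays there. Trim63 read 6772 and 6718 in N-CE against 5204 and 4805 in VC (log2 0.43 ± 0.07), and the second probe of Fbxo32 read 2336 and 2771 against 1638 and 1809 (log2 0.56 ± 0.07). Both readings of N-CE lay above both of VC for each of these probes. The brightest probe of Fbxo32 had a mean of 0.48, and its N-CE readings of 2424 and 3478 lay farther apart. Ankrd1 had log2 values of 0.58 on both arrays (1.49-fold), just under the threshold of 1.5.

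At N-CE 1W, Myog and Chrna1 differed from VC by less than the dye spread, with means of 0.04 ± 0.07 and 0.01 ± 0.12. Myh3 was well above background in VC only, with VC at least 1.20-fold higher. The MXD and N-CE values of a week share their VC pool and are given side by side. The MXD value minus the N-CE value at 1W was 1.03 ± 0.08 for Myog, 0.63 ± 0.10 for Chrna1 and 2.45 ± 0.10 for Ankrd1. At 2W it was -1.05 ± 0.49 for Myog, -0.95 ± 0.06 for Chrna1 and -1.34 ± 0.07 for Trim63. The ± of these differences is the root mean square of the MXD and N-CE dye-swap SDs. It can therefore be smaller than the larger of those SDs.

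At N-CE 2W, the means of the 8 measured members lay between -0.39 and 0.09. The 2 arrays of this swap correlated at -0.17 in log2 ratio over probes well above background in both groups on both arrays, against 0.26 to 0.71 in the other comparisons. Chrna1 had a mean of -0.34 ± 0.03, Myog -0.30 ± 0.15, Trim63 -0.17 ± 0.04 and Ankrd1 0.01 ± 0.13, beside -0.42 for the mature fast muscle genes. At N-CE 3W, 1 member was called down, Ankrd1, against 0.147% of genes called down and 0.143% called up. It read 38.0 and 27.3 in N-CE against 73.7 and 105 in VC (log2 -1.45 ± 0.70). It was well above background in N-CE on 1 of 2 arrays, and the mean was -0.53 with normexp. When genes had to be well above background in both groups on both arrays, this call was lost. Myog (log2 -0.51 ± 0.13), Chrna1 (-0.47 ± 0.12) and Trim63 (-0.51 ± 0.08) were lower on both arrays without being called, beside -0.36 for the fast muscle list.

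**Figure D3:**
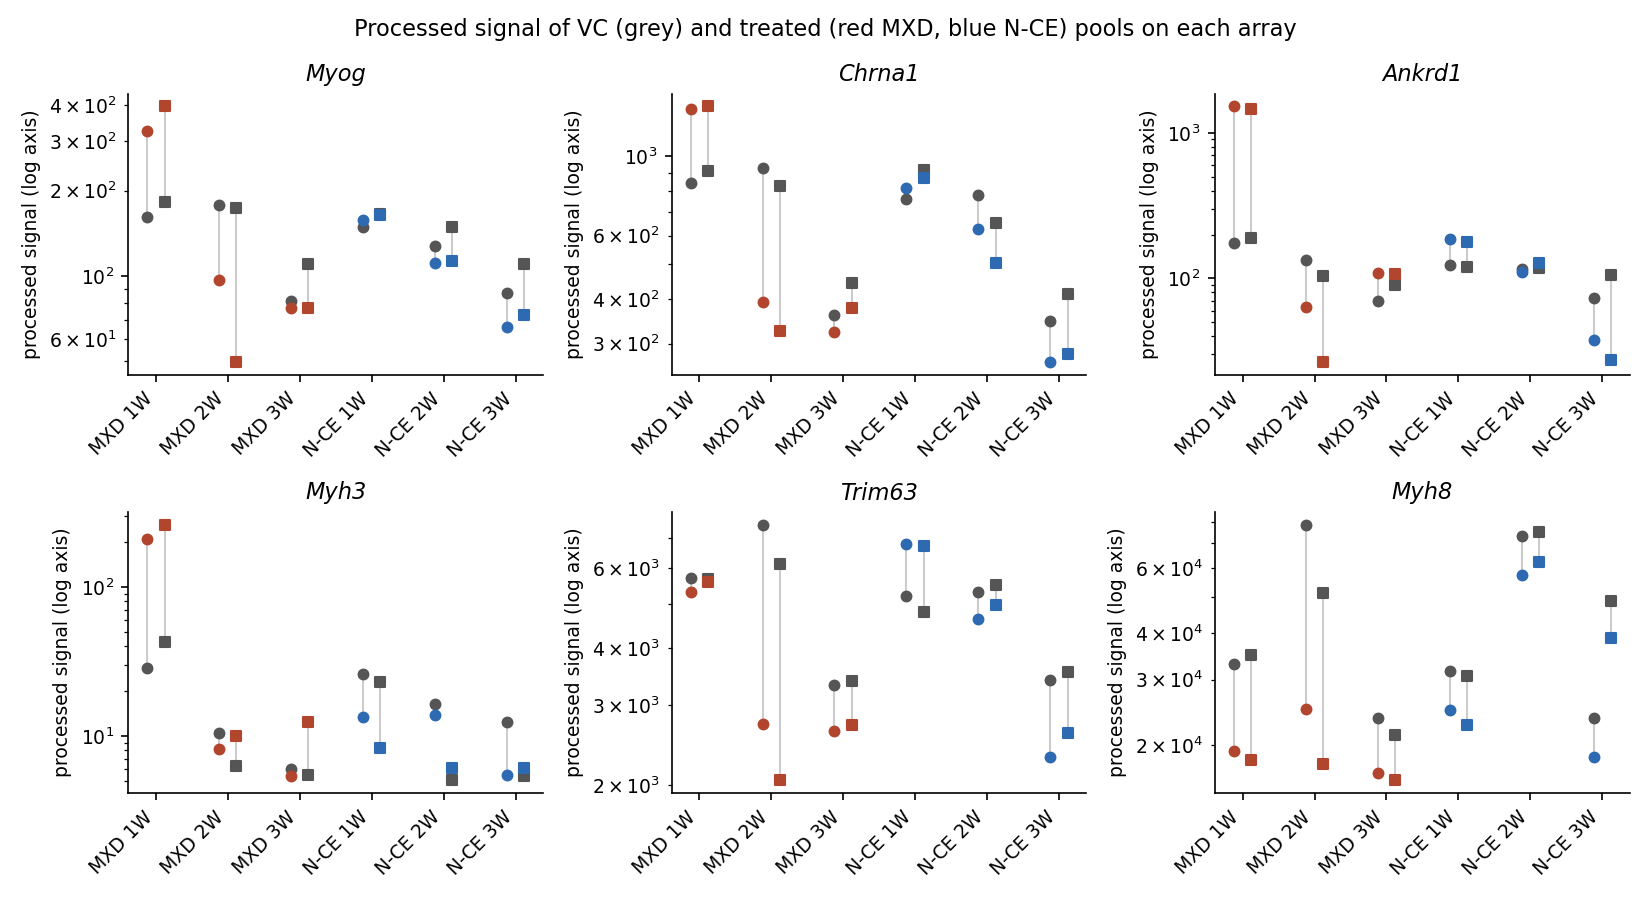
Processed signal (log axis, arbitrary units, scaled for each gene) of 6 members in the VC pool (grey) and the treated pool (red MXD, blue N-CE) on each array. Circles are arrays with the treated pool in Cy5 and squares those with it in Cy3. Ankrd1 reads 1522 and 1454 in MXD at 1W and Myh3 reads 211 and 262, above every other pool shown for these genes.

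The VC pools also differed over the weeks. From the first to the last week, the normalized log2 signal in VC was 9.38, 8.90 and 8.51 for Chrna1 and 7.49, 7.16 and 7.11 for Myog. Week and slide cannot be told apart here. The same VC pool, read on the MXD arrays and on the N-CE arrays of a week, differed by between -0.21 and 0.15 over the members at 1W, and the bright Myh8 probe differed by -0.69 and -0.70 at 2W and 3W, so levels across arrays were less firm than ratios within an array.

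In the myogenic program (16 genes), 0 were called up and 1, the intermediate filament gene Des, was called down at MXD 1W, and at MXD 2W 7 were called down, among them Cdh15, the satellite cell cadherin (log2 -1.63 ± 0.41). Pax3 was called up at MXD 2W. Over all genes, 0.848% were called up and 0.855% down at MXD 1W, and 4.26% and 6.87% at MXD 2W. In the list of the neuromuscular junction and denervation (17 genes), Gadd45a, a stress gene induced by denervation, was called up at MXD 1W (log2 0.85 ± 0.12), while Chrne and Ache, the esterase of the synapse, were called down. At MXD 2W, 7 of its genes were called down, including Rapsn, which clusters the receptor (-1.58 ± 0.63), and Dok7, which activates its kinase (-1.39 ± 0.18), and 1, Runx1, was called up. With normexp, Rapsn had a mean of -0.63 and Dok7 -1.20.

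Among 18 genes of atrophy and proteolysis, 3 were called down at MXD 1W, against 0.855% of all genes, and 6 at MXD 2W, against 6.87%. Mstn, a growth inhibitor secreted by muscle, had the largest of these falls at 2W (log2 -1.88 ± 0.33), followed by Trim54, a relative of Trim63 (-1.52 ± 0.08), and Foxo3, a transcription factor that drives the ligases, was called up. The list median was -0.15 in both weeks. Of 9 genes of muscle ankyrin repeats and Z-disc stress, Ankrd23, a relative of Ankrd1, was called down at MXD 1W (log2 -0.98 ± 0.01), and 7 were called down at 2W, among them Xirp2 (-1.66 ± 0.13) and Myoz2 (-1.51 ± 0.09), a pair of Z-disc proteins. At N-CE 3W, Ankrd2 (log2 -0.73 ± 0.17) and Xirp1 (-0.68 ± 0.08) were called down, as Ankrd1 was, against 0.147% of all genes.

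Of 11 developmental and slow sarcomere genes, Myl4, the embryonic light chain, was called up at MXD 1W (log2 0.88 ± 0.15), against 0.848% of all genes. In that comparison 4 genes, 3 of them of slow fibers or the heart (Myh7, Myl2 and Myl3), were called down, against 0.855%. At N-CE 1W, 5 genes of this list were called down, against 1.85% of all genes. Myh7, Myl2 and Tnni1 were well above background in VC only, with VC at least 2.74-fold, 1.79-fold and 1.16-fold higher. Tnnt1, the slow troponin T (log2 -0.76 ± 0.21), and Mybph (-0.63 ± 0.02) were measured in both groups. At MXD 1W, Myh7 and Myl2 had means of -2.79 ± 1.35 and -2.28 ± 0.63, which were -1.32 and -0.96 with normexp. Myh7 was there not well above background in both groups on both arrays. Both comparisons rest on the same VC pool. The list median at N-CE 1W was -0.63, beside -0.18 for the mature fast genes.

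**Figure D4:**
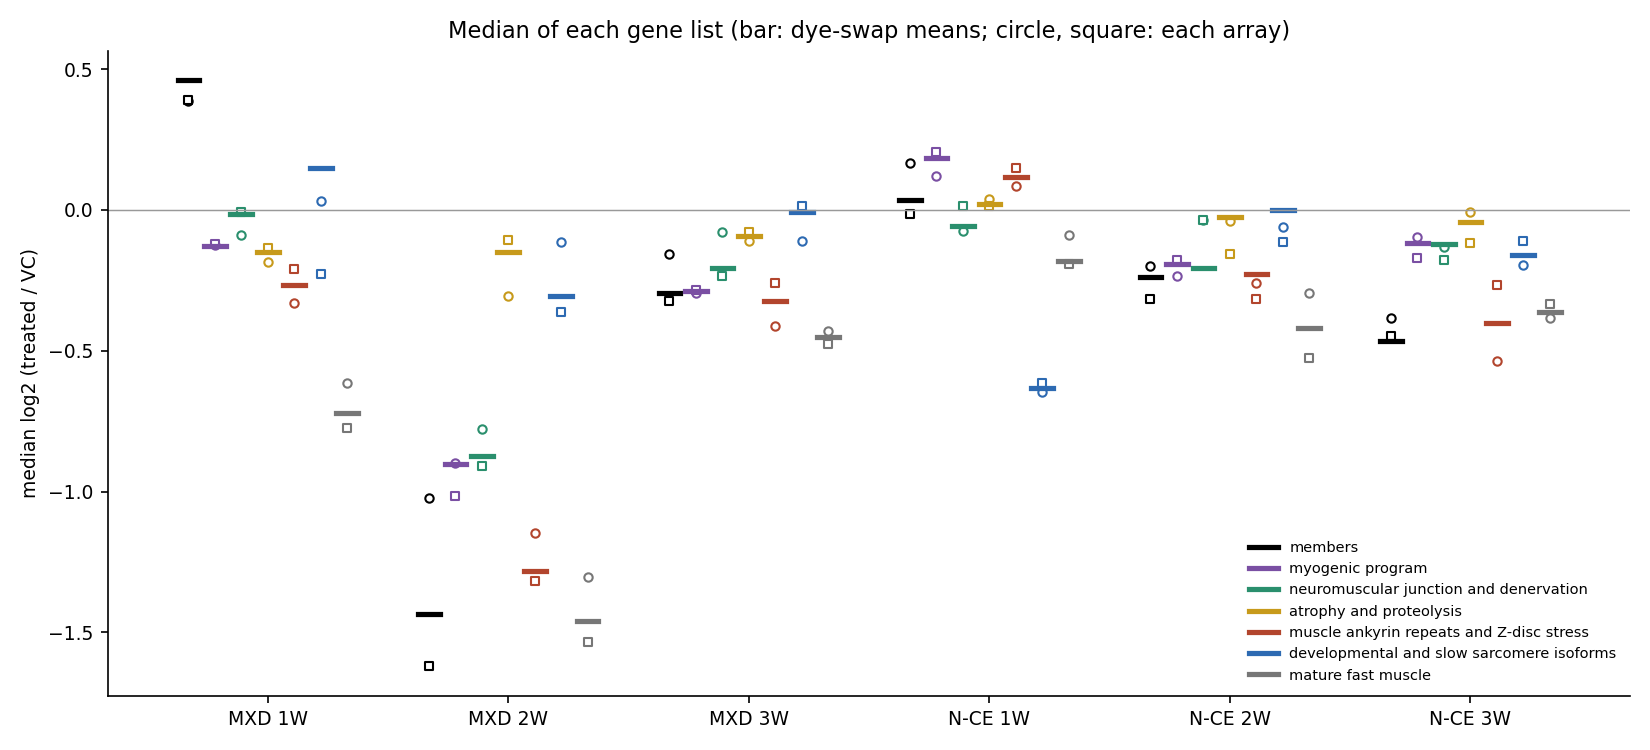
Median log2 ratio of treated over VC for the members and 6 companion lists in each comparison. Bars are medians of dye-swap means, and open circles and squares are the medians on the arrays with the treated pool in Cy5 and Cy3. The members have a median of 0.46 at MXD 1W, where mature fast muscle genes have -0.72, and they have -1.44 and -1.46 at MXD 2W, where normexp gave -0.53 and -1.44.

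Markers of other cell types differed from VC as well. At MXD 2W, 5 of 5 macrophage markers, 5 of 5 fibroblast markers, 5 of 5 endothelial markers and 4 of 5 Schwann cell markers were lower on both arrays, with medians of -0.74, -0.86, -0.46 and -0.83, beside 33.7% of all measured genes lower on both arrays. Of 7 smooth muscle genes, 3 were lower and 3 higher on both arrays (median 0.18). Of the basal epidermal markers, 3 of 5 were lower (median -0.32). The summed signal went from 23077 in VC to 14047 in MXD for macrophages and from 301787 to 170699 for fibroblasts. At MXD 1W, 4 of 5 macrophage markers and 4 of 5 fibroblast markers were higher on both arrays, beside 31.5% of all measured genes, with medians of 0.28 and 0.30, and 4 of 5 markers of the basal epidermis were lower (median -0.25), beside 33.2% of all measured genes. None of these was called. At N-CE 1W, 4 of 5 macrophage, endothelial and fibroblast markers each were higher on both arrays, with medians of 0.18, 0.28 and 0.21, beside 33.5% of all measured genes. At N-CE 2W and N-CE 3W, 4 of 5 macrophage and 4 of 5 fibroblast markers were lower on both arrays, with medians between -0.29 and -0.16, beside 18.2% and 28.3% of all measured genes, and none was called. The part of these cells in the values of the members was not tested.

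When the 3 weekly folds of a treatment were used as replicates, no gene passed. The test asks for a like fold in all weeks, so genes that change sign between weeks, such as Myog and Ankrd1, could hardly pass. In simulated folds, a log2 shift of 1.5 was recovered for 36 of 200 probes for MXD, 66 for N-CE and 0 for their difference. The lack of passing genes is therefore not read as a lack of change. limma called 0 of 40820 probes (0.0%) for MXD, for N-CE and for the difference between them at an adjusted p of 0.05. Before adjustment, 3067, 1486 and 2021 probes had a limma p under 0.05. Such counts also arise without any change and are not read as a result. The mean over the weeks for MXD was -0.20 ± 0.60 (SE, 3 weeks) for Myog and 0.65 ± 1.12 for Ankrd1, with limma adjusted p of 0.929 and 0.825. The bright Myh8 probe was lower on all 6 arrays of each treatment, with a mean of -0.97 ± 0.28 for MXD (limma adjusted p = 0.628) and -0.35 ± 0.03 for N-CE (limma adjusted p = 1).

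Over the 6 comparisons, the gene nearest to Myog among 15840 genes measured in both groups of all comparisons was Chrna1, at a Euclidean distance of 0.44 over the 6 mean log2 folds. Next to Myog came Ppbp (0.55) and Serpinb3c (0.59). The bright Myh8 probe was nearest to Pvalb, the calcium buffer of fast fibers (distance 0.18), followed by Sypl2 and Jph1. Trim63 was nearest to Mrgprb2, 9330159F19Rik and Myoz2. Ankrd1 was nearest to Spp1, at the larger distance of 1.54, followed by Sprr2d (1.70) and Stfa1 (1.72). Chrna1 was nearest to Cd200r1, with Myog second, and Myod1 was nearest to Ctla2b (distance 0.092). These distances describe 6 comparisons that share 3 VC pools.

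The promoters of Myog, Myh3, Chrna1 and Chrng are shown, which were called up at MXD 1W, Chrng on its second probe only. Ankrd1 was called up there as well, but its promoter is not printed. Each run is the 250 bases before the RefSeq start of transcription on GRCm38.p6, read on the strand of the gene, with the E-box CANNTG, the motif that myogenic factors such as Myod1 and Myog bind, in capitals.
Myog, chr1:134289754-134290003, plus strand: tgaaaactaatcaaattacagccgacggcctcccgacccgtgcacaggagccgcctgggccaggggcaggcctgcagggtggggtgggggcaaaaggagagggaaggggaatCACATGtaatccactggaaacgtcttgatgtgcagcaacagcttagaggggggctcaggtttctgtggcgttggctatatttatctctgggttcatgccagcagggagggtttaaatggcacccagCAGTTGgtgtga
Myh3, chr11:67078050-67078299, plus strand: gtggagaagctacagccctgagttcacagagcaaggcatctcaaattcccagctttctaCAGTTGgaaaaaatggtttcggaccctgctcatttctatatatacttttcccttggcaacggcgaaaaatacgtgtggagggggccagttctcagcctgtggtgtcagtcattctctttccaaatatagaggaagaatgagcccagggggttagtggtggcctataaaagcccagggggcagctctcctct
Chrna1, chr2:73580339-73580588, minus strand: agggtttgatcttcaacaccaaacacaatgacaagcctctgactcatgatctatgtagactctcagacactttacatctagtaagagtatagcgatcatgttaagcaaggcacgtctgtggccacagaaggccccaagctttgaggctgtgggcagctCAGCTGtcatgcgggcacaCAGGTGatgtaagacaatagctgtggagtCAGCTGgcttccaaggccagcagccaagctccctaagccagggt
Chrng, chr1:87205561-87205810, plus strand: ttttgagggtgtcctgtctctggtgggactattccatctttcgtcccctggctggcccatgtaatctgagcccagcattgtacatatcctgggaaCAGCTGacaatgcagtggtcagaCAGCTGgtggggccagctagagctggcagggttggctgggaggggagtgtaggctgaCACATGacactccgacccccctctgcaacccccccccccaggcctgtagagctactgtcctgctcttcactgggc
CANNTG reads the same on both strands, and so does CAGCTG. Chrna1 and Chrng hold 3 E-boxes each, 2 of them CAGCTG, at 92, 73 and 44 bases and at 155, 132 and 75 bases before the start. Myog holds 2, at 138 and 12 bases, and Myh3 holds 1, at 191 bases. Of 32851 windows of the same length in the RefSeq table, 66.2% hold at least 1 CANNTG, 12.2% hold at least 3 and 1.26% hold at least 2 CAGCTG. Of the 10 members, 8 had a window there, and Trim63 holds 3 E-boxes, Myh8 and Ankrd1 hold 1 each and Pax7 holds 0. The E-box of Ankrd1 is not CAGCTG. A match is a description of the letters and not a bound site.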

How the data were processed

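Scans of the 12 arrays were processed by the authors with Agilent Feature Extraction, given as version 12.0.3.1 in the deposited headers and 11.0.1.1 in the submitters' processing notes. For each spot the authors deposited the log10 ratio of Cy5 to Cy3, corrected for background and, by LOWESS, for dye. The p-value they deposited beside it is the software's and covers error of that spot, not variation among mice. The deposited signal intensity of each channel was used processed, and raw for the alternative. The deposited matrix holds log10 of the ratio of processed intensities.

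All ratios were expressed as treated over VC, control and outlier spots (143 to 355 per array) were left out, and spots of a probe were averaged. In each channel 57.0% to 69.6% of spots were well above background, and 0 were saturated. The 2 arrays of a dye swap count as 1 replicate. Across weeks, limma 3.58.1 (R 4.3.3) was fitted to the log2 folds of the 3 weeks and p-values were adjusted by Benjamini-Hochberg. Python 3.11.15, numpy 2.4.6 and pandas 2.3.3 were used. Steps were tested on simulated data. The number of arrays limits the precision.

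The alternatives were normexp (offset 50) with loess, kept outlier spots, means over probes, median centring, matrix values, a background filter, single arrays, other fold and P rules, left-out weeks and the slide as a random block. Members, companion lists and the rules for naming genes were chosen with earlier results of these data known. All members are named. Companion genes were taken from the 2 per list and comparison that changed most, and neighbours from the 3 nearest over the 6 comparisons, and not all of these are printed. A result that this rule would name is not reported here. Other genes named here were chosen after their values were seen. Positions of probes are on mm9 and those of promoters on GRCm38.p6.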

Additional observations from a re-analysis of the deposited data

Results flagged for a closer look

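Pairs of comparisons that share a treatment or a week are listed here where both arrays of one lay above 0 and both of the other below 0, the gene was well above background in both groups of each, and at least 1 of them was called. None of these differences was tested, since each comparison holds 1 pool per group. On the log2 scale, MXD 1W minus MXD 2W was 2.42 for Myog, 1.93 for Chrna1 and 4.55 for Ankrd1. MXD 1W minus MXD 3W was 1.36 for Myog and 0.84 for Chrna1. For Ankrd1, MXD 2W minus MXD 3W was -1.95, MXD 3W minus N-CE 3W was 1.89, and N-CE 1W minus N-CE 3W was 2.03. The background rule needed 1 of 2 arrays of a group, and treated Ankrd1 passed on only 1 at MXD 2W and N-CE 3W. With normexp, Ankrd1 had means of 2.46, -0.38 and 0.24 at MXD 1W, 2W and 3W and -0.53 at N-CE 3W. Myog had 0.73 and -0.57 at MXD 1W and 2W, so the sizes depended on the background correction.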

How the results depend on the processing

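Every called member kept its direction under every alternative that gave it a value. With normexp and loess and the fold alone, the median of measured members became 0.14 at MXD 1W, -0.53 at MXD 2W, -0.16 at MXD 3W and -0.36 at N-CE 3W, and 1 and 2 members were called at MXD 3W and N-CE 3W. At MXD 2W this setting gained Fbxo32 and Myod1 and lost Ankrd1, and at MXD 1W it lost Chrna1. A run with normexp folds and the software's P, chosen after seeing the data, called 4 members in each of these 2 comparisons. The mean over probes gave a median of 0.36 at MXD 1W. With genes well above background in both groups on both arrays, the median was 0.43 at N-CE 1W and -0.40 at N-CE 3W, where the call of Ankrd1 was lost (0 called). With the fold alone, 9 members were called at MXD 2W, 1 at MXD 3W, 1 at N-CE 1W and 5 at N-CE 3W. On single arrays, the calls were 6 at MXD 1W, 6 to 7 at MXD 2W, 0 to 1 at N-CE 1W and at N-CE 2W and 2 at N-CE 3W, and the medians were 0.39 to 0.39 at MXD 1W, -1.62 to -1.02 at MXD 2W, -0.32 to -0.16 at MXD 3W, -0.014 to 0.17 at N-CE 1W, -0.32 to -0.20 at N-CE 2W and -0.45 to -0.38 at N-CE 3W. The cause of these shifts was not tested. limma called 0 probes under every alternative. MXD minus N-CE was taken within weeks. By replicate number, no paired analysis was possible because all samples carry replicate number 1. Signals near background limit Pax7, Chrng and, outside MXD 1W, Myh3.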
